A study of Schizosaccharomyces pombe with 2 samples.

Results

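Of the 5374 introns counted in fission yeast (Schizosaccharomyces pombe) cells in meiosis I, 2508 had at least 20 reads in each of the 2 libraries, and in 252 of these (10.05%) no unspliced read was counted at 25 °C. These 252 introns, of 225 genes, are described here. They were chosen by their unspliced count at 25 °C, so that count and any change from it are given as a description. A further 1536 introns with 0 unspliced reads at 25 °C had fewer than 20 reads in a library and were left out. At either temperature the cells carried pat1_as2, an allele of the Pat1 kinase, and prp2-1, which makes the large U2AF subunit Prp2 fail when warm. They had been arrested in G1 without nitrogen and sent into synchronous meiosis chemically. At the start of meiosis I, 1 part of the culture stayed at 25 °C, where Prp2 works, and the other went to 34 °C, where it is inactivated, and polyA RNA was taken 1 h later. Each temperature has 1 library, so no difference has a replicate check, every test on reads compares these libraries only, and intervals cover counting error only. PCR copies of a molecule are not independent reads. An effect of heat and an effect of losing Prp2 cannot be told apart, since no strain with a working Prp2 at 34 °C was analysed here.

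An intron is removed in 2 chemical steps, after U1 snRNP has bound the 5' splice site and U2AF and the branch-point binding protein have marked the 3' end. The large subunit of U2AF binds the pyrimidine tract, the small subunit the terminal AG, and U2 snRNP then pairs with the branch site. Fission yeast introns are mostly short, with a conserved 5' splice site and branch site and a weak pyrimidine tract. In general, reads that cross a joined pair of exons are taken as spliced and reads of the retained intron as unspliced. What made a read unspliced in these counts is not given in the sources used here. The unspliced share is the unspliced reads as a percentage of both kinds.

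The sequences that follow are shown because these introns, alike at 25 °C with 0 unspliced reads, lay at opposite ends at 34 °C. They are from the RefSeq ASM294v3 assembly, 5' to 3' along the transcript, and the capitals mark the first 6 bases, the best match to the branch site and the last 3 bases. The first 3 introns had 0 unspliced reads at 34 °C too, and the fourth had 8 of 311.
SPCC613.08 intron 1, chrIII:93231-93284, plus strand: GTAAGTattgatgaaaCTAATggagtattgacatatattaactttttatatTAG
rpl3801 intron 1, chrII:754655-754783, plus strand: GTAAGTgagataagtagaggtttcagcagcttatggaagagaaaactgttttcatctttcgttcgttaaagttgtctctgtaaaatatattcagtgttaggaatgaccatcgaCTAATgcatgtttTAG
trm7 intron 1, chrI:4835704-4835921, minus strand: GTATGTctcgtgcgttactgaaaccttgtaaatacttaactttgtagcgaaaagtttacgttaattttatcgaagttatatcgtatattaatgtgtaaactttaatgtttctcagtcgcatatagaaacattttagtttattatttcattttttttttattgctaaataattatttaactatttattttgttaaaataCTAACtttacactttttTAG
ftp105 intron 4, chrI:1787353-1787450, plus strand: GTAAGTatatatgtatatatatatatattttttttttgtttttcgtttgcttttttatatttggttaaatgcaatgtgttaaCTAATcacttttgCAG

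The next 4 introns were among those with the highest unspliced shares at 34 °C, between 76.0% and 81.0%.
mug27 intron 2, chrIII:1678779-1678827, minus strand: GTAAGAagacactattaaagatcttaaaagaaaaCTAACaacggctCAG
gpi12 intron 1, chrI:2706553-2706603, minus strand: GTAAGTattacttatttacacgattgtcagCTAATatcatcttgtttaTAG
snx3 intron 1, chrII:3550105-3550184, minus strand: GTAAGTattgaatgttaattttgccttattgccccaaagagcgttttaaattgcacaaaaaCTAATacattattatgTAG
naa10 intron 3, chrI:3730597-3730643, plus strand: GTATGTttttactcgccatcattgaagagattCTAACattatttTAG

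Of these 4, 3 begin with GTAAGT or GTATGT, the most frequent starts among measured introns, as do the 4 introns that stayed spliced. All 8 hold CTAAT or CTAAC, full matches to the branch site CTRAY (R is A or G, Y is C or T). The 8 lie in the coding part of their genes. The places of mug27, gpi12 and snx3, minus-strand genes with several introns, rest on an inferred numbering, so their sequences are less sure. An annotated exon of another gene overlaps the introns of SPCC613.08, rpl3801, mug27 and snx3, so reads of that gene could have been counted as unspliced there.

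The introns without an unspliced read at 25 °C were shallow. They held 14634 reads at 25 °C in all, of 636989 in that library, and 14005 of 493659 at 34 °C. The lowest had 20 reads at 25 °C, the median 34 and the highest 989, against a median of 78 for the 2256 measured introns with an unspliced read. A count of 0 in 34 reads allows a share of up to 8.82%, and over the set this limit ran from 0.303% to 15%. The set is therefore one of introns in which unspliced RNA was not detectable at this depth. The share of introns without an unspliced read fell from 25.6% of those with 20 to 29 reads at 25 °C to 1.29% of those with at least 200. At the edge of the rule, intron 1 of mpg2, for a mannose-1-phosphate guanyltransferase, entered with 0 of 20 reads at 25 °C and had 14 of 20 unspliced at 34 °C. Intron 5 of SPAC1296.01c and intron 3 of kap113, also with 20 reads at 25 °C, had 12 of 21 each. Intron 5 of srp2, with 1 unspliced read of 540 at 25 °C, stayed out, and had 17 of 240 at 34 °C.

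At 34 °C unspliced reads appeared in 239 of the 252 introns, at levels from a few percent to most of the reads. The unspliced share at 34 °C is a reading from a library whose unspliced counts the rule did not use. It had a median of 22.1% with quartiles of 11.1% and 44.98%, and the highest was 82.1%. For the 2256 other introns the median was 43.7% with quartiles of 23.8% and 65.2%. Summed over reads, 3648 of 14005 were unspliced at 34 °C, 26.0% (exact 95% binomial interval 25.3 to 26.8), against 39.3% (39.1 to 39.4) for the other introns. The share lay below 10% in 58 introns (23.0%), against 8.51% of the others, and at 50% or more in 55 (21.8%), against 42.6% of the others. None of the 252 reached 90%, while 80 of the others did. The spread was wider than counting error: the binomial interval of the intron lay wholly below 26.0% in 77 introns, wholly above it in 70, and held it in 105.

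**Figure D1:**
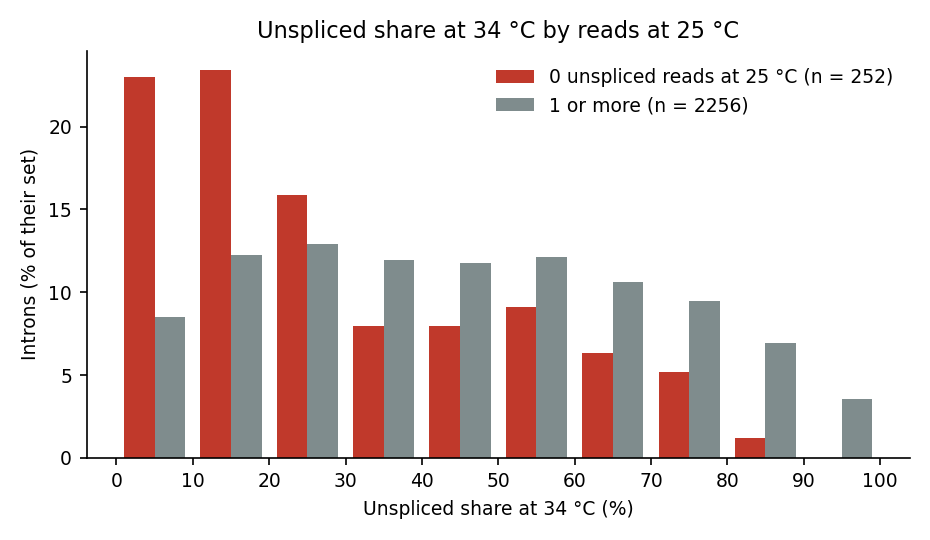
Share of introns (y axis, percent of their set) by unspliced share at 34 °C (x axis, percent, in steps of 10), for the 252 introns with 0 unspliced reads at 25 °C (red) and the 2256 with 1 or more (grey). The red bars are highest below 20%, with 58 and 59 introns in the lowest steps, and end below 90%.

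The gap was present at each depth. Among introns with 20 to 29 reads at 25 °C, the 101 without an unspliced read had a median of 26.1% at 34 °C and the 293 others 55.2%. With 50 to 99 reads the medians were 24.0% (50 introns) and 44.1%, and with at least 100 and fewer than 200 reads 14.7% (23 introns) and 35.5%. The 7 deepest had a median of 0%, and 6 of them are wtf introns. The share at 34 °C was also higher where more unspliced reads had been counted at 25 °C, apart from a step between 2 and 3 reads with little difference. Over introns with 20 to 49 reads at 25 °C, the median was 24.4% for 0 unspliced reads, 37.1% for 1, 43.7% for 2, 43.3% for 3, 57.1% for 4 and 69.6% for 5 or more. Introns with a share of more than 0 and at most 2% at 25 °C, which are deeper, had a median of 21.6% at 34 °C (241 introns), close to that of the introns without an unspliced read.

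**Figure D2:**
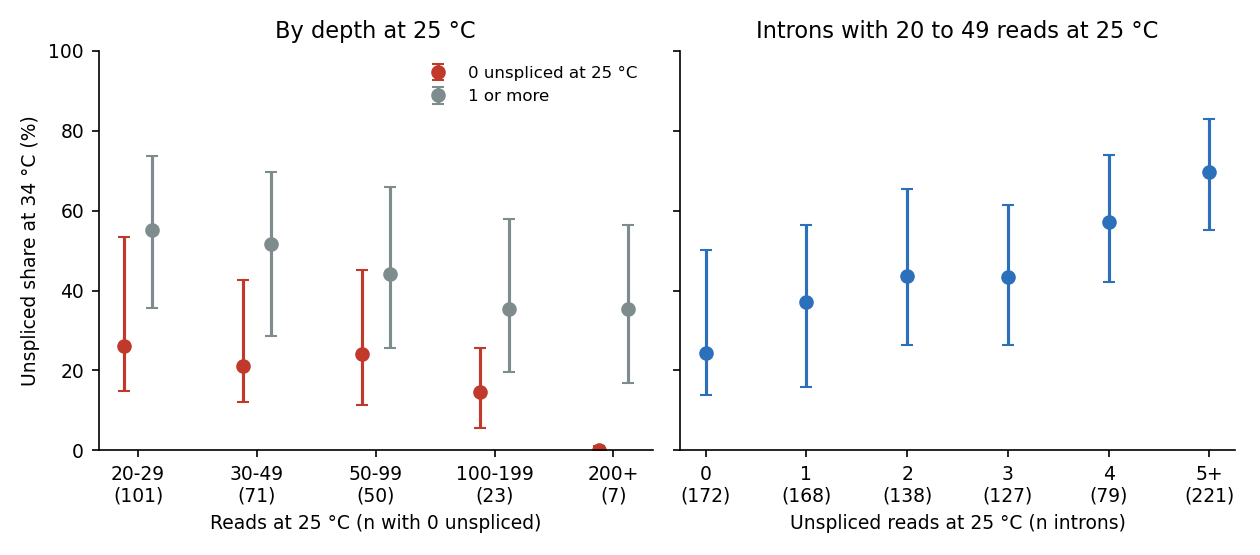
Median unspliced share at 34 °C (points, percent) with quartiles (bars). The left panel splits introns by reads at 25 °C, with 0 unspliced reads (red, number in parentheses) or more (grey), and the red median is lower in each class. The right panel takes introns with 20 to 49 reads at 25 °C by their unspliced reads there, from a median of 24.4% at 0 to 69.6% at 5 or more.

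The choice of introns fixed the 25 °C side of any comparison between the temperatures at 0, and a fall was not possible. For description only, 184 of the 252 were among the introns called higher at 34 °C by Fisher's exact test (two-sided, adjusted by Benjamini-Hochberg over 2508 introns), where 82.6% of all measured introns were called higher. Over all measured introns the number called lower was 0 by this test, also at an unadjusted p under 0.05. Nothing is read from the 184.

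The number of introns read as fully spliced at 34 °C as well was 13, or 5.16% of the 252, against 6 of the 2256 others (0.266%). The set was shallower at 34 °C, with a median of 46 reads against 84.5, and a 0 is likelier at low depth. With 20 to 29 reads at 25 °C, the counts were 0 of 101 and 3 of 293 others. In each deeper class the percentage was higher in the set, from 4 of 71 against 2 of 440 with 30 to 49 reads to 5 of 7 against 0 of 536 with at least 200. These classes go by reads at 25 °C and do not match depth at 34 °C. Median reads at 34 °C were 46 in the set against 52.5 with 30 to 49 reads, and 79 against 282.5 with at least 200. The part of depth at 34 °C in these counts was not tested. Of the 13, 8 belong to wtf genes, a family of meiotic drivers and their suppressors that act on spores. The other 5 lie in SPCC613.08, trm7, rpl3801, ulp2 and mfm1. None of the 4 with 30 to 49 reads at 25 °C is a wtf intron. With 50 reads or more, all but that of mfm1 are wtf introns, so the higher percentages there rest mostly on this family. In the class of 50 to 99 reads the only one, 1 of 50 against 1 of 587 others, is the wtf3 intron. Intron 1 of SPCC613.08, annotated as a cyclin-dependent kinase regulator, had no unspliced read among 47 at 25 °C and 136 at 34 °C, and 0 of 136 allows up to 2.21%. The single intron of trm7, for a tRNA ribose methyltransferase, had 0 of 32 and 0 of 55 (up to 5.45%). Intron 1 of rpl3801, for a protein of the large ribosomal subunit, had 0 of 32 and 0 of 49 (up to 6.12%). Of these 5, SPCC613.08 was bounded most tightly, and for the rest a share of several percent could not have been seen. Intron 3 of ulp2, for a SUMO peptidase, had 0 of 33 and 0 of 39 (up to 7.69%), and intron 2 of mfm1, for the precursor of the mating pheromone M-factor, 0 of 105 and 0 of 35 (up to 8.57%). M-factor has more than 1 gene and rpl3801 has the copy rpl3802, so it is uncertain which copy their reads came from. Intron 2 of that copy went from 0 of 67 to 6 of 130 (4.62%).

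Among the 10 introns deepest at 25 °C, 8 lie in wtf genes. The wtf introns of the set are 11 of 51 measured wtf introns, in 9 of 21 genes, with a median of 259 reads at 25 °C. For intron 2 of wtf4 the unspliced count was 0 of 989 at 25 °C and 0 of 79 in the warmed culture, for intron 2 of wtf21 it was 0 of 439 and 0 of 79, and for intron 5 of wtf19 it was 0 of 370 and 0 of 155. In wtf9 intron 3 the counts were 0 of 281 and 0 of 27, in wtf18 intron 1 they were 0 of 259 and 0 of 43, and in wtf5 intron 1 they were 0 of 193 and 0 of 25. Over the 8 wtf introns with 0 unspliced reads at 34 °C, the share this allows there ran from 1.94% in wtf19 to 15% in wtf3. It was 11.1% in wtf9 and 12% in wtf5. The 3 wtf introns with unspliced reads at 34 °C were intron 3 of wtf16, with 0 of 143 and 4 of 27 (14.8%), intron 4 of wtf25, with 0 of 291 and 2 of 44, and intron 6 of wtf18, with 0 of 183 and 2 of 25. Together the 11 had 8 unspliced of 560 reads at 34 °C (1.43%, exact interval 0.619 to 2.80). The other 40 measured wtf introns ran from 0.163% to 99.8% at 34 °C, with a median of 49.7%. The 11 introns held 3390 reads at 25 °C and 560 at 34 °C, a fall in depth that moves with the result, and its part in it was not tested. In bulk RNA, fewer cells with the transcript and less of it per cell cannot be told apart. Without the wtf genes 5 introns had 0 unspliced reads at 34 °C, and the median share at 34 °C was 23.2%.

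The family shares sequence, as the first introns of wtf5 and wtf21 show, which are printed here for that reason with the same marks.
wtf5 intron 1, chrIII:243994-244159, plus strand: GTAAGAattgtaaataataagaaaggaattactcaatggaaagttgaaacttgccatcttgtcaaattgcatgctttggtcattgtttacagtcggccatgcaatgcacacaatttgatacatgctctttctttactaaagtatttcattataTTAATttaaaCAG
wtf21 intron 1, chrIII:2064591-2064757, plus strand: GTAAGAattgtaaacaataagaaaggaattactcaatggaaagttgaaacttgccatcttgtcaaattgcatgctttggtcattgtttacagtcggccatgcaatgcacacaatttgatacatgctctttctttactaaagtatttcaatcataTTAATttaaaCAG

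They are identical at 164 of 167 aligned positions (98.2%), and intron 4 of wtf25 is 98.8% identical to that of wtf5. In wtf5 and wtf21 no full match to CTRAY was found in these introns. The marked TTAAT is the nearest to the 3' end among equal partial matches, and CTAAA further upstream matches as well. To ask where reads could be shared, windows of 50 bases across each exon-intron border and each exon-exon junction were compared with the whole genome. A window with a second copy was found for 8 of 219 introns without an unspliced read at 25 °C (3.65%) and for 10 of 1988 others (0.503%). Of the 8, 7 were among the introns under 5% at 34 °C. These 7 are all the wtf introns with 0 unspliced reads at 34 °C that could be placed, and each has a second copy of a border window. Intron 1 of wtf18 was not placed. In intron 3 of wtf16 and intron 4 of wtf25, which had unspliced reads at 34 °C, no window had a second copy. The places in wtf3, wtf4, wtf16 and wtf25 rest on the inferred numbering. How the authors treated reads with several places is not given in the sources used here, and the part of shared sequence in these counts was not tested.

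**Figure D3:**
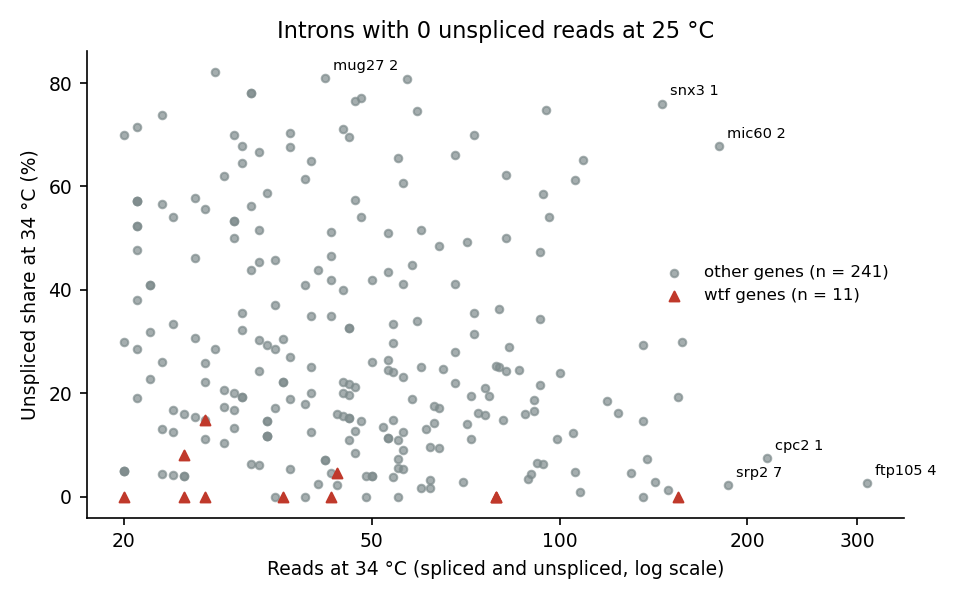
Unspliced share at 34 °C (y axis, percent) against reads at 34 °C (x axis, log scale) for each of the 252 introns with 0 unspliced reads at 25 °C, with wtf introns as red triangles. Shares run from 0 to 82.1%, and 8 of the 11 triangles lie at 0.

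Beside the introns at 0, 25 introns kept a share above 0 and under 5% at 34 °C, so that 38 lay under 5% in all. Intron 7 of srp2, for an SR protein that binds exons in early spliceosome assembly, had 0 of 499 reads at 25 °C and 4 of 186 at 34 °C, 2.15% (0.589 to 5.41). Intron 4 of ftp105, for a partner of the ubiquitin peptidase Ubp5, had 0 of 117 and 8 of 311 (2.57%). Its neighbours in the gene had 50% of 322 reads (intron 3) and 32.1% of 159 reads (intron 5) at 34 °C. Intron 1 of hat1, for a histone acetyltransferase, had 0 of 86 and 2 of 149, intron 2 of trk2, for a potassium transporter, 0 of 151 and 5 of 106, and intron 4 of hus5, for the SUMO-conjugating enzyme, 0 of 43 and 1 of 62. The single intron of tts1, for a membrane protein of the endoplasmic reticulum, was the deepest intron outside wtf genes after that of srp2, with 0 of 183 and 6 of 92 (6.52%).

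At the other end, the lower bound of the share at 34 °C exceeded 50% in 23 introns. In intron 1 of snx3, for a sorting nexin of endosomal transport, 0 of 37 reads were unspliced at 25 °C and 111 of 146 at 34 °C, 76.0% (68.3 to 82.7). Intron 2 of mug27, for a meiotic protein kinase of forespore membrane formation, went from 0 of 102 to 34 of 42 (81.0%, 65.9 to 91.4). Its intron 1 went from 33 of 869 to 225 of 282 (79.8%), so the pair of introns of this gene stood close together at 34 °C. Intron 2 of mic60, for a subunit of the mitochondrial MICOS complex, went from 0 of 51 to 122 of 180 (67.8%, 60.4 to 74.5). Intron 1 of gpi12, an enzyme gene of GPI anchor synthesis, had 0 of 54 and 46 of 57, and intron 2 had 0 of 39 and 21 of 30. Intron 2 of hri2, for a kinase of the translation factor eIF2 alpha, had 0 of 52 and 23 of 28, intron 1 of eap1, for a protein that binds eIF4E, 0 of 41 and 71 of 95, and intron 3 of naa10, for a protein N-acetyltransferase, 0 of 33 and 37 of 48. The remaining introns named for their lower bound were intron 1 of swc4 (36 of 47 at 34 °C), a subunit of chromatin complexes, intron 1 of trm11 (44 of 59), a tRNA methyltransferase, and intron 1 of SPBC21D10.08c (25 of 32).

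Whether an intron without an unspliced read at 25 °C differed at 34 °C from the other introns of its transcript was asked in the 34 °C library alone. Of 284 pairs of such an intron with another measured intron, in 129 genes, the share at 34 °C was lower in the intron without an unspliced read in 200 and higher in 83. The median difference was -13.9 points, with quartiles of -34.3 and 2.91. With Fisher's exact test, two-sided and adjusted by Benjamini-Hochberg over all 1825 pairs of introns of 1 gene, 162 of the 284 differed (57.0%). Over all 1825 pairs 55.5% differed, so a difference was about as common as in any pair. Of the 162, the intron without an unspliced read was the lower in 127 (78.4%, in 73 genes) and the higher in 35 (in 27 genes). Without introns that an exon of another gene overlaps, the counts were 18 and 12, a smaller excess of lower pairs. Pairs that share an intron are not independent.

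The widest pairs with the lower share in the chosen intron lay in wtf21, wtf3, wtf19, not11, prp10, twf1 and rpl3801. In wtf21, introns 1 and 2 had 0 of 36 and 0 of 79 at 34 °C, whereas intron 4 had 457 of 458 and intron 5 had 1194 of 1222. At 25 °C intron 4 of wtf21 already stood at 28 of 35, and intron 5 at 86 of 178. Reads of introns 1 and 2 of wtf21 fell from 145 and 439 at 25 °C, while those of introns 4 and 5 rose. Whether the reads of these introns come from the same transcript was not tested. In wtf19 intron 5 had 0 of 155 and intron 2 had 1712 of 1885 at 34 °C, after 332 of 1519 at 25 °C. In wtf3 intron 2 had 0 of 20 and intron 1 had 100 of 109, after 35 of 42. In not11 introns 2 and 3 had 1 of 25 and 1 of 24, and intron 1 had 101 of 113 (adjusted p = 7.23e-16 and 2.49e-15, Fisher's exact test). At 25 °C intron 1 of not11 stood at 43 of 68. In these 4 genes the comparison intron had many unspliced reads at 25 °C too, from 21.9% in wtf19 to 83.3% in wtf3. An exon of another gene overlaps introns 1, 2, 4 and 5 of wtf21, intron 5 of wtf19 and intron 1 of not11. Reads of that gene could have been counted as unspliced there.

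In twf1 and rpl3801 the other intron had 1 unspliced read at 25 °C. Intron 2 of twf1, the gene for the actin-binding protein twinfilin, had 4 of 142 reads unspliced at 34 °C (2.82%, 0.773 to 7.06) and intron 5 had 1 of 25, while intron 1 went from 1 of 21 to 27 of 34 (79.4%, 62.1 to 91.3; adjusted p against intron 2 = 4.55e-20, Fisher's exact test). In rpl3801 intron 1 had 0 of 49, and intron 2 went from 1 of 23 to 53 of 72 (73.6%, 61.9 to 83.3; adjusted p = 2.08e-17, Fisher's exact test). In prp10, which encodes the U2 snRNP protein SF3B1, intron 2 had 5 of 56 at 34 °C and intron 1 had 116 of 126, after 33 of 39 at 25 °C. The introns of these pairs that are not yet shown are printed next, for the contrast within a gene.
twf1 intron 1, chrIII:2125975-2126012, plus strand: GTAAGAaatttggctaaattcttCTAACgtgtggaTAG
twf1 intron 2, chrIII:2126091-2126153, plus strand: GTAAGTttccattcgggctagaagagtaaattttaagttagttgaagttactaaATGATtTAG
rpl3801 intron 2, chrII:754971-755149, plus strand: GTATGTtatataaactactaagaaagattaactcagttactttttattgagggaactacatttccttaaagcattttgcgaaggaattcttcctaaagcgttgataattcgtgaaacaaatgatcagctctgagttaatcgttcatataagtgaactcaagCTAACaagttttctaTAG
prp10 intron 1, chrI:4336556-4336621, minus strand: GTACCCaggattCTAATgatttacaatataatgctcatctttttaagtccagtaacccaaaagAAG
prp10 intron 2, chrI:4336727-4336777, minus strand: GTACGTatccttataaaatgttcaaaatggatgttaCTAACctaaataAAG

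The mostly spliced intron 2 of twf1 is 63 nt long and the retained intron 1 is 38 nt long and holds CTAAC. In intron 2 no full match to CTRAY was found. The marked ATGAT is only the nearest to the 3' end among equal partial matches, and CTAAA just before it matches as well. Which of them serves as the branch site is not known from the sequence. In rpl3801 the spliced intron starts with GTAAGT and the retained one with GTATGT. Intron 1 of prp10 starts with GTACCC. An exon of another gene overlaps each of these introns except intron 2 of prp10. The deposited numbers were taken to run along the chromosome from its left, which was inferred from the counts and is not stated in the sources. On that reading intron 2 of prp10, on the minus strand, is the first of its transcript. If the numbers run the other way, the sequences printed for prp10 change places.

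In the 35 pairs called the other way, the intron without an unspliced read at 25 °C had the higher share at 34 °C. In snx3 intron 1 had 111 of 146 and intron 3 had 7 of 72, 9.72% (adjusted p = 1.82e-20, Fisher's exact test). In cct2, for a subunit of the cytosolic chaperonin, intron 1 had 18 of 29 and intron 2 had 2 of 44. In eaf1, for a transcription elongation factor, intron 3 had 51 of 82 and intron 1 had 10 of 169, after 5 of 102 at 25 °C. In gnd1, for phosphogluconate dehydrogenase, intron 3 had 15 of 26 and intron 1 had 1 of 36. The order at 25 °C was set by the choice of introns, since the chosen intron is always the lower one there. The counts at 25 °C were also small, so no reversal between the temperatures is read from these pairs.

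**Figure D4:**
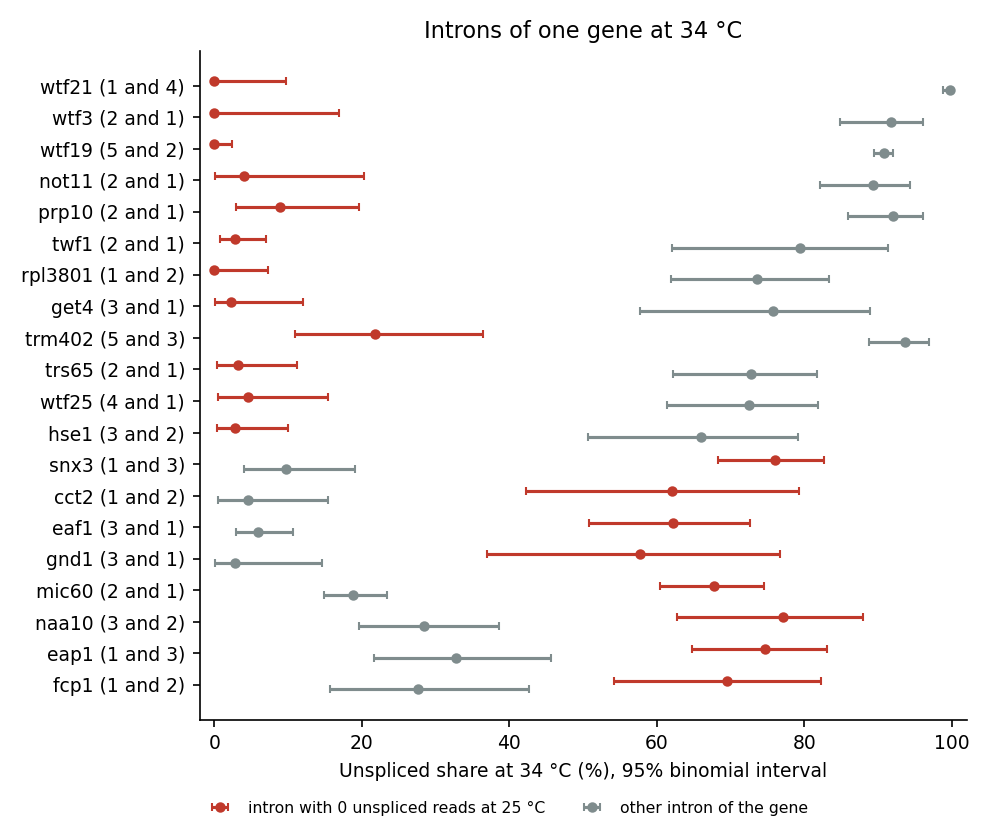
Unspliced share at 34 °C (x axis, percent) with exact 95% binomial intervals (bars, which at 0 reach above the limit of 3 counts used in the text) for the intron without an unspliced read at 25 °C (red) and another intron of the same gene (grey), with intron numbers in parentheses in that order. Shown is the widest pair of a gene among pairs that differed, for 12 genes in which red is lower, from wtf21 at 0 and 99.8%, and 8 in which it is higher, from snx3 at 76.0% and 9.72%.

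Most of the 225 genes held 1 such intron, and 21 held more. The gene clr6, for a class I histone deacetylase, held 6 of them among 9 measured introns. At 34 °C these had 46.5% (20 of 43, intron 10), 30% (6 of 20, intron 4), 24.4% (20 of 82, intron 7), 17.2% (5 of 29, intron 6), 13.5% (7 of 52, intron 8) and 11.3% (6 of 53, intron 9). Intron 10 differed from introns 6, 7, 8 and 9 by the Fisher's exact tests over pairs (adjusted p from 4.67e-04 to 0.0298), and no other pair of the 6 was called. In nop52, a nucleolar protein gene, all 3 introns had 0 unspliced reads at 25 °C, of 63, 24 and 72. At 34 °C introns 1 and 2 had 50% of 82 reads and 57.4% of 47 reads, and intron 3 had 1 of 108, 0.926% (0.0234 to 5.05; adjusted p against intron 1 = 2.04e-16, Fisher's exact test). In rpn1302, for a proteasome subunit, introns 1 and 2 had 21.5% and 20%, and in ham1, for a nucleoside triphosphatase, introns 1 and 5 had 28.6% and 57.1% of 21 reads each, a pair that was not called. Of 39 pairs in which both introns lacked unspliced reads at 25 °C, 13 differed at 34 °C, against 55.5% of all pairs. More of the 39 come from clr6 than from any other gene. The introns of the set were also shallower at 34 °C (median 46 reads against 84.5), which makes a call less likely, so no likeness between them is read from this.

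By gene function, 82 of the 252 introns fell in 13 lists made from gene symbols, and 170 in none. Such introns made up 18.9% of the measured introns of chaperone genes (7 of 37) and 18.2% of those of spliceosome and splicing factor genes (12 of 66), against 10.05% of all measured introns. They made up 1.72% for respiration genes (1 of 58), 3.28% for cell cycle and segregation genes (2 of 61) and 7.53% for meiotic genes (7 of 93). Depth also differed between these lists, and its part in the shares was not tested. Measured introns had a median of 52 reads at 25 °C in the splicing list, 64 in the chaperone list, 259.5 in the respiration list, 62 in the cell cycle list and 262 in the meiotic list.

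In the splicing list the 12 introns lie in 12 genes and had a median of 17.3% at 34 °C, against 27.6% for its other measured introns. The lowest besides srp2 were ntr2, for a protein of spliceosome disassembly, with 2 of 49, lsm5, for a protein of the U6 particle, with 4 of 90, and prp10. The U6 proteins lsm7 and lsm8 had 6 of 53 and 10 of 33, and the Sm protein genes smb1, smf1 and smg1 had 13 of 56, 4 of 24 and 7 of 39. The intron of the SR protein gene srp1 had 6 of 31, snu23 had 13 of 53, and intron 1 of dre4 stood apart at 15 of 21 (71.4%). Ribosomal protein genes held 8, with a median of 14.6%, against 26.9% for the 69 others of the list. The 8 ran from rpl3801 at 0 to rpp103 at 65 of 106 (61.3%). The copies rpl2701 and rpl2702 had 9 of 63 and 12 of 81 in intron 1.

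Genes of protein turnover held 11 such introns with a median of 17.2% at 34 °C, against 38.4% for the other 85 measured introns of the list. They ran from hus5 at 1.61% to ufd1, a partner of the Cdc48 segregase, at 20 of 34 (58.8%). In ubp3, for a ubiquitin peptidase, the only intron went from 0 of 114 to 40 of 136 (29.4%), and in ubc15, for a ubiquitin-conjugating enzyme, introns 1 and 4 had 11 of 64 and 5 of 46. Vesicle transport genes held 12, with a median of 18.3%, against 35.6% for the others. Intron 2 of sec61, for the channel of the endoplasmic reticulum, had 0 of 104 and 10 of 138 (7.25%), and intron 2 of sec231, for a coat protein of COPII vesicles, 0 of 106 and 7 of 56 (12.5%). Intron 3 of bet4, for a subunit of the enzyme that prenylates Rab proteins, had 0 of 28 and 32 of 45 (71.1%). In sec15, for an exocyst subunit, introns 2 and 4 had 14 of 88 and 26 of 40 and differed (adjusted p = 3.54e-07, Fisher's exact test).

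Chaperone genes held 7, with a median of 25% at 34 °C, against 32.7% for the 30 others of the list. Intron 2 of cct1 had 3 of 89 (3.37%) at 34 °C, and of the same chaperonin intron 2 of cct3 had 15 of 33 and intron 1 of cct2 18 of 29. The 7 introns of meiotic genes had a median of 24.6%, against 51.4% for the 86 others. Intron 1 of mug93 was the deepest, with 0 of 150 and 20 of 136 (14.7%), and mug27 was the highest. Between them lay mde6 (16 of 35), mug16 with introns 3 and 4 (16 of 65 and 15 of 46), mug62 (15 of 68) and mug64 (8 of 72). Of vacuolar ATPase genes, vma2 had 3 of 55 and vma13 21 of 50. Among the small lists, pic1, for the INCENP protein of the chromosomal passenger complex, had 25 of 32 (78.1%), spc25, of the Ndc80 complex, 18 of 45, taf5, of the transcription factor TFIID, 15 of 46, rpb8, of RNA polymerases, 16 of 76, coq4, of ubiquinone synthesis, 14 of 32, and tif307 29 of 80. In translation factors and respiration the 2 introns and the 1 intron lay above the median of the other introns of their list, and in the other 11 lists the median lay below it.

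**Figure D5:**
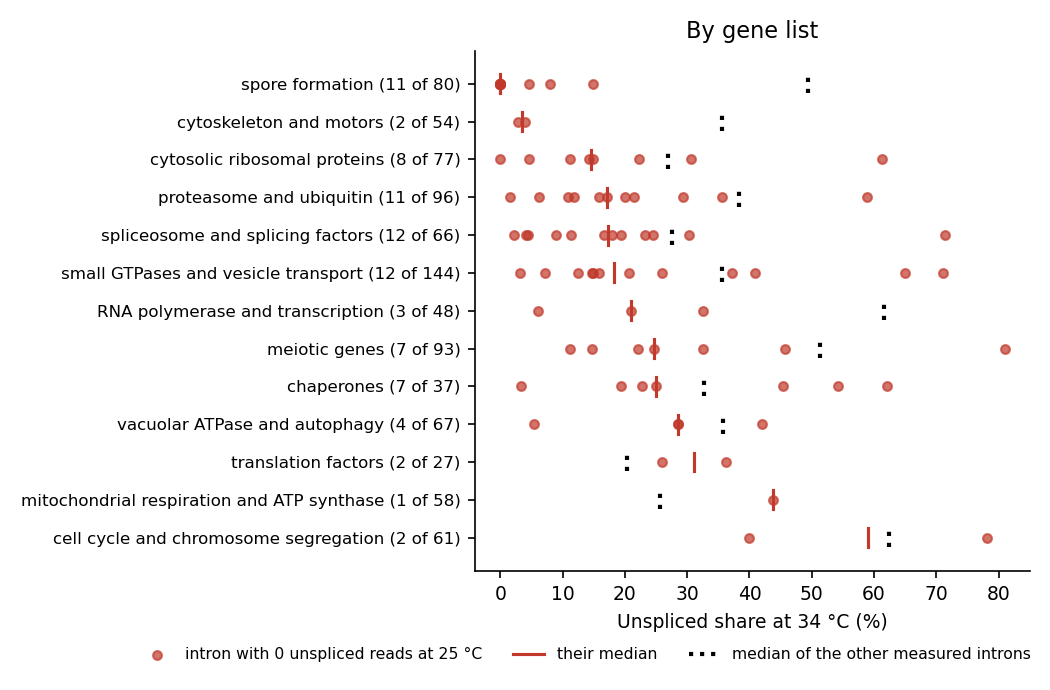
Unspliced share at 34 °C (x axis, percent) of introns with 0 unspliced reads at 25 °C (points), with their median (red line) and the median of the other measured introns of the list (dotted line), for 13 lists of genes with the number of such introns among the measured in parentheses. The points spread widely within lists, in the splicing list from 2.15% to 71.4%, and the wtf introns of the spore formation list run from 0 to 14.8%.

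Most sequence properties of the 252 introns lay close to those of the other measured introns, and the score of the 5' splice site was higher. This score sums how frequent the bases at positions 3 to 6 are in introns, and its median was 5.65 against 4.13, with lower quartiles of 3.67 and 3.02. With plus-strand and single-intron genes only, either median was 5.65. Of the 228 placed as GT-AG introns, GTAAGT began 32.0% and GTATGT 21.1%, against 28.1% and 21.3% of the others. A full match to the branch site CTRAY stood in 76.3% and 77.1%. Their median length was 56 nt against 58 nt, their GC content 28.5% against 29.2%, and the 14 bases near the 3' end held a median of 8 pyrimidines in either set. An exon of another gene overlapped 61.6% and 58.7%. Introns of single-intron genes were 13.5% of the set and 21.9% of the others.

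Among the 228 introns, the share at 34 °C was higher in short introns and in those with a 5' splice site further from the commonest bases. The 60 introns of at most 45 nt had a median of 29.2%, and the 58 of at least 91 nt had 15.5%. Spearman's rho across introns was -0.195 for length and -0.201 for the score of the 5' splice site, against -0.219 and -0.326 across the 2053 others. These are descriptions across introns that share 1 library, and introns of 1 gene are not independent. The rho of the score is also in part built in by the placement. In minus-strand genes with several introns, the numbering was chosen by the relation of 5' splice site frequency to this same share. Of the 228 introns, 149 lie in plus-strand or single-intron genes, where the place did not rest on that choice. By start, the median was 19.5% for GTAAGT (73 introns), 19.2% for GTATGT (48), 13.5% for GTAAGA (23), 21.9% for GTATGA (14), 35.3% for GTACGT (14), 45.7% for GTAAGC (7), 16.6% for GTATGC (6), 27.9% for GTAAGG (6) and 10.9% for GTGAGT (5). Among the rarer starts the medians thus lay on either side of those of the common ones. The number of pyrimidines near the 3' end, in the stretch that U2AF binds, had a rho of 0.0722 with the share.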

How the data were processed

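PolyA RNA of 2 cultures, 1 library each, was sequenced by the authors. The deposited table of 5374 introns holds, per the file headers, unscaled whole read counts, spliced and unspliced, 636989 at 25 °C and 493659 at 34 °C. The other deposited columns hold, per the file headers, the counts with 0 replaced by 1 and the ratio of spliced to unspliced; they were not used, nor was a smaller table with the same counts for 1340 introns. Per the submitters' processing notes the tools were TopHat and SAMtools, without versions. The sources used here do not give the build, annotation, counting tool, use of strand or what made a read unspliced.

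Introns with at least 20 reads in each library were kept. Exact Clopper-Pearson 95% intervals and limits of 3 counts for a 0 cover counting error only. Fisher's exact tests used scipy 1.17.1, tested on simulated data, with Benjamini-Hochberg adjustment over 2508 introns or 1825 pairs, called under 0.05. The introns described, the gene lists and the tests were chosen with earlier results of these data known. Named introns were the 10 deepest at 25 °C, the 10 with the highest lower bound at 34 °C, those with 0 unspliced reads at 34 °C, the 8 widest called pairs within a gene, the 6 deepest genes with several such introns, the deepest of each list and up to 3 just inside and outside the rule. Others were named after their values were seen, to fill out lists and pairs.

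Symbols, positions and sequences come from the RefSeq ASM294v3 annotation, which may differ from the authors' (2541 of 2548 identifiers matched). Introns were placed by number where exactly 1 transcript has as many introns, 229 of the 252. In minus-strand genes, numbering from the left of the chromosome gave a within-gene rank correlation of 5' splice site frequency and share at 34 °C of -0.265 (721 introns) and from the right 0.0721. Minus-strand genes with several introns and no c at the end of the identifier gave -0.0838 and -0.100, so their introns were not placed. The 5' splice site score sums the log2 ratio of base frequency to 0.25 over bases 3 to 6, with 0.001 added. The branch site was sought in the last 60 bases, and of equal matches the one nearest the 3' end was marked. Pyrimidines were counted in the 14 bases that end 3 bases before the exon.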

Additional observations from a re-analysis of the deposited data

How the results depend on the processing

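The set, and the gap between it and other introns, moved with the minimum depth. With at least 10 reads it held 543 introns, 30 with 0 unspliced reads at 34 °C, with a median share there of 27.8% against 45.9%, 345 called higher, and 249 pairs called with the chosen intron lower and 53 higher. With at least 50 reads the values were 48, 3, 16.0%, 37.1%, 36, 33 and 3, and with at least 100 reads 10, 1, 5.98%, 31.8%, 7, 11 and 0. Allowing 1 unspliced read at 25 °C gave 524 introns, medians of 26.0% and 45.5%, 383 called and 207 pairs lower. Without introns overlapped by an exon of another gene, 88 were left, 4 with 0 at 34 °C, with a median of 26.2%, 65 called, and 18 pairs lower and 12 higher, so the excess of lower pairs shrank; fewer introns entered, and the cause of the shift was not tested. With 1 intron per gene there were 130 introns and 92 calls, and the median of the others was 40.9%. At an adjusted p under 0.01, 23 pairs were higher. As shares of summed reads the medians became 26.0% and 39.3%. After the data were seen, wtf genes were left out, which left 5 introns with 0 at 34 °C, or introns with a shared 50-base window, without a place or without a window that could be compared, which left 3; rpl3801 intron 1, placed but without such a window, was among those left out. In each setting the median of the set lay below that of the other introns. No paired analysis was possible because each temperature has 1 library. At these depths an unspliced share of a few percent at 25 °C is not told apart from 0.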

Other observations

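Unspliced reads at 25 °C and none at 34 °C were counted in 6 measured introns. Intron 5 of rsd1, an RNA-binding protein gene, went from 1 of 52 to 0 of 53, which allows up to 5.66%. Intron 1 of did2 had 1 of 47 and 0 of 39, intron 1 of ria1 1 of 23 and 0 of 29, intron 1 of sec11, for a signal peptidase subunit, 2 of 47 and 0 of 25, intron 1 of SPAC15A10.06 2 of 25 and 0 of 25, and intron 4 of dim1 1 of 27 and 0 of 21. Just outside the set by a single unspliced read at 25 °C were also intron 3 of wtf20, with 1 of 1363 reads at 25 °C and 6 of 262 (2.29%) at 34 °C, and intron 1 of rps3001, a ribosomal protein gene, with 1 of 443 and 15 of 904 (1.66%).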
